A study of Mus musculus with 30 samples.

Results

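RNA levels in the fracture callus were followed for 10 genes that act in the osteoclast, the multinucleated cell that dissolves mineral and digests bone matrix. Resorption itself was not measured. Of these genes, Car2 is also abundant in red blood cells and did not share the course of the others. The set holds the fusion proteins Dcstamp and Ocstamp, the receptors Oscar and Calcr, the secreted or vesicular enzymes Acp5 and Ctsk, and the acid secretion genes Tcirg1, Atp6v0d2, Clcn7 and Car2. These 10 genes were taken by symbol from the 43629 genes of the deposited raw count table, and each was read in all 30 libraries. Oscar was selected on its CPM by diet and day in earlier results of these data, so its values are described without a test, and the other 9 genes, chosen by name for their roles, were tested.

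The libraries came from the healing callus of male C57BL/6J mice that were 20 weeks old at an open osteotomy of the right tibia, stabilized with an intramedullary nail. Lean mice, kept on a low-fat diet, were harvested on days 3, 5, 7 and 10 after fracture (d3, d5, d7 and d10), and diet-induced obese (DIO) mice, kept on a high-fat diet, on these 4 days and also on d14 and d21. Each of the 10 groups held 3 calli. No lean library of d14 or d21 was analysed here, so the late days are described in DIO mice alone. RNA came from whole callus, from which the study removed soft tissue while avoiding intact bone. Each value averages over all cells of the sample. Markers of cartilage, of bone-forming cells and of osteoclasts were detected in every group. Those of skeletal muscle were also detected in every group, at levels that differed widely between calli. Library totals ran from 13247122 to 26365620 counts, with a median of 16854427. Levels are given as CPM, a gene's counts scaled to a library of fixed size, with totals adjusted by the trimmed mean of M-values, and levels of different genes are compared per kilobase of exon.

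Osteoclasts arise when myeloid precursors exposed to CSF1 and RANKL fuse with each other. The mature cell seals off a patch of bone and acidifies it with a vacuolar proton pump. A chloride-proton exchanger carries the counter charge and carbonic anhydrase supplies the protons. Tartrate-resistant acid phosphatase and cathepsin K then act in this acid space. In an endochondral callus such cells remove calcified cartilage and remodel woven bone.

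All 10 genes lay outside regions where reads of another gene on the same strand could be mixed in, as far as GENCODE M21 on GRCm38 shows. Acp5 (chr9:22126727-22135711, minus strand), Ctsk (chr3:95499256-95509362, plus strand), Dcstamp (chr15:39745930-39760938, plus strand) and Ocstamp (chr2:165393760-165400405, minus strand) are on 4 different chromosomes. The receptors Oscar (chr7:3609813-3616157, minus strand) and Calcr (chr6:3685680-3764714, minus strand) and the acid secretion genes Tcirg1 (chr19:3896050-3907133, minus strand), Atp6v0d2 (chr4:19876841-19922605, minus strand), Clcn7 (chr17:25133391-25162104, plus strand) and Car2 (chr3:14886273-14900770, plus strand) also lie apart from each other, except that Ctsk and Car2 share chromosome 3. On the opposite strand, the noncoding gene 6530413G14Rik covered 6.75% of the exon bases of Acp5. Ocstamp shared stretches of up to 191 bases, at 95.3% identity in the longest, with transcripts of 5 other genes.

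For 4 of the members, 1 window each upstream of a start site is shown. RefSeq promoter windows on GRCm38.p6 were found for 6 of the 10 genes, namely Acp5, Calcr, Clcn7, Ctsk, Oscar and Tcirg1, and the 250 bases before each start were searched on both strands. The motifs were TCATGTG (the M-box of MITF), CACGTG (the E-box of the MITF and TFE family), TGANTCA (AP-1), GGAAA (the NFAT core) and GAGGAA (the PU.1 core), where N is any base, and GAGGAA and GGAAA may overlap. The windows of Clcn7, Ctsk and Oscar are those nearest the annotated start of the gene, whereas the window of Acp5 is that of its most downstream RefSeq start, shown because it alone of its 3 windows held the M-box (chr9:22130599-22130848, minus strand, inside the Acp5 gene, with 10 of its bases in an annotated exon). The windows of Clcn7 (chr17:25133141-25133390, plus strand), Ctsk (chr3:95498960-95499209, plus strand) and Oscar (chr7:3616158-3616407, minus strand) hold no annotated exon. Each is written 5′ to 3′ on the strand of its gene, with bases of any of the 5 motifs in capitals.
Acp5: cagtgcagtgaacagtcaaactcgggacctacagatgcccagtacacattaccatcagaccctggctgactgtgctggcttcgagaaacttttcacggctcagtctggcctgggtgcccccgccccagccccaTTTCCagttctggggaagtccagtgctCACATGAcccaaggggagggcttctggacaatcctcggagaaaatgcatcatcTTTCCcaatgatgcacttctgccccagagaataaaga
Clcn7: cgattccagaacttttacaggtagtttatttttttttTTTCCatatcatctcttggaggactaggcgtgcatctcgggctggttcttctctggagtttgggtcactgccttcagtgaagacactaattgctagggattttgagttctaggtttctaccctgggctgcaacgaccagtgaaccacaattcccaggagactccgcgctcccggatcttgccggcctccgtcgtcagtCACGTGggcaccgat
Ctsk: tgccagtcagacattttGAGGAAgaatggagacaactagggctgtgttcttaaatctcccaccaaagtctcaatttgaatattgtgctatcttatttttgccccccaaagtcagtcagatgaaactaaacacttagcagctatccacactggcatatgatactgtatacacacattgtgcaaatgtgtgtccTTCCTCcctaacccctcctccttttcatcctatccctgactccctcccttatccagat
Oscar: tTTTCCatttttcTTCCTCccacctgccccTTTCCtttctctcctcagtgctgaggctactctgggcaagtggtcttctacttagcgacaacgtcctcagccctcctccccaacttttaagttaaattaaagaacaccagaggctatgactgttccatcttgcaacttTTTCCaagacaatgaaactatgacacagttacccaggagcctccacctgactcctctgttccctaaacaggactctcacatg
The capitals mark an M-box and 2 NFAT cores in Acp5, and a CACGTG box and 1 NFAT core in Clcn7. Ctsk held 2 PU.1 cores, while Oscar held 3 NFAT cores and 1 PU.1 core. In the window nearest the annotated start, 0 of the 6 genes held TCATGTG or TGANTCA, 1 held CACGTG, 4 held GGAAA and 2 held GAGGAA. The windows of Calcr and Tcirg1 are not printed, and that of Tcirg1 nearest its start held none of these motifs. Of all 32851 windows of the same length, 3.25% held TCATGTG, 6.02% CACGTG, 6.75% TGANTCA, 55.6% GGAAA and 23.3% GAGGAA. Neither AP-1 nor, outside Acp5 and the second start of Clcn7, the M-box was found in the 12 windows of these 6 genes.

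In lean calli, 8 of the 9 tested genes were higher on d10 than on d3, with Car2 the exception, and Acp5 and Dcstamp rose most among the genes with ample counts. In DIO calli all 9 were higher on d10 than on d3, and for all but Car2 most of the rise fell between d7 and d10. The plot of the members' CPM by day shows lean means that were higher on each day than on the one before for all but Tcirg1, Calcr and Car2, and, for all but Car2, lower means on d7 than on d5 in DIO mice.

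**Figure D1:**
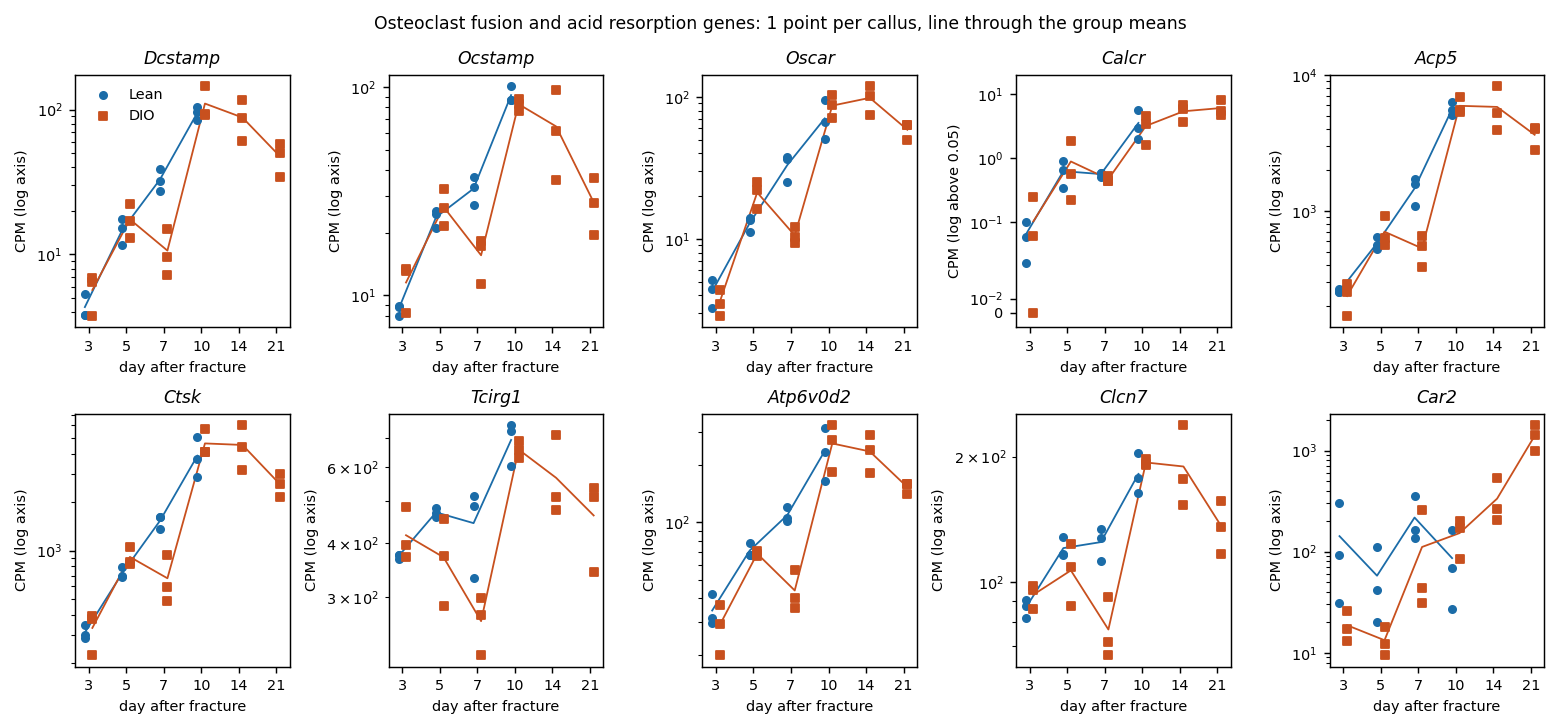
Level of each gene as CPM against the day after fracture, with 1 point per callus for lean (blue circles) and DIO mice (orange squares), lines through the group means, log axes, and for Calcr an axis that is linear near 0. On d7 the DIO calli lie below the lean calli for Dcstamp, Ocstamp, Oscar, Acp5, Ctsk, Tcirg1, Atp6v0d2 and Clcn7, and on d10 the diets overlap for all 10 genes.

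By the quasi-likelihood test of edgeR, with p-values adjusted over all genes, 8 of the 9 genes differed among the lean days, against 19% of the 16471 genes tested, and 9 of 9 among the DIO days, against 59.1% of 16995. In lean mice 6 of the 9 genes were higher on d7 than on d3 (Acp5, Ctsk, Dcstamp, Ocstamp, Calcr and Atp6v0d2), against 1.32% of genes. From d7 to d10, 7 rose (these 6 and Clcn7), against 1.09%, though this count was 3 when lean d7 replicate 1, 2 or 3 was left out. From d3 to d10, 8 rose, against 15.2%. The median log2 fold change of the 9 genes over d3 to d10 was 3.44, where that of all genes was 0.023.
In DIO mice only 3 genes (Acp5, Ctsk and Car2) were higher on d7 than on d3, against 4.67% of genes. That count was 0 without DIO d3 replicate 1 or replicate 3, and 1 without DIO d7 replicate 2. From d7 to d10, 8 rose (all but Car2), against 6.01%, and from d3 to d10 all 9, against 11.1%. The median log2 fold change from d7 to d10 was 2.56 in DIO and 1.35 in lean calli, beside -0.021 and -0.009 over all genes. In whole callus, a change in the number of osteoclasts and a change in the RNA of these genes per osteoclast cannot be told apart.
Markers of other cell types moved with these rises. The summed CPM of macrophage markers ranged from 5310.4 to 6328 on lean d3 and from 2286 to 3381 on lean d10, and that of neutrophil markers from 10940.1 to 23617 and from 358 to 5766, both lower on d10 without overlap. Csf1r, which is among the macrophage markers, went the other way and rose over these days. The chondrocyte sum ranged from 318 to 463 on lean d3 and from 14322 to 73066 on lean d10, and the osteoblast sum from 20886 to 31410.4 and from 43516 to 70497, both higher on d10 without overlap. From DIO d7 to DIO d10 the chondrocyte sum was lower, at 16451 to 37812 and then 2476 to 7188, while the macrophage (2498 to 2904 and then 3190.4 to 3326), osteoblast (23728 to 39818 and then 40311 to 47623), dendritic cell and adipocyte sums were higher, all 5 without overlap. All 12 macrophage, 8 neutrophil, 8 chondrocyte and 8 osteoblast markers were detected, and the part of these cells in the rises was not tested.

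Dcstamp and Ocstamp encode transmembrane proteins of the precursor surface that cell fusion requires. Lean calli held 3.80, 5.37 and 3.84 CPM of Dcstamp on d3, 17.7, 11.6 and 15.2 on d5, 38.8, 32.4 and 27.6 on d7 and 85.3, 96.6 and 104 on d10. No lean callus of a later day overlapped one of an earlier day. DIO calli held 3.78, 6.83 and 6.45 CPM on d3, 22.2, 13.1 and 17.1 on d5 and 7.21, 15.1 and 9.62 on d7, then 91.02, 93.6 and 145 on d10. Thus 2 of the 3 DIO calli of d7 were below all those of d5. Dcstamp was 22.2-fold higher on d10 than on d3 in lean (log2 fold change 4.47 ± 0.22 SE, adjusted p = 4.33e-07) and 19.3-fold higher in DIO calli (log2 fold change 4.27 ± 0.35 SE, adjusted p = 5.26e-07).
Ocstamp followed the same order at lower fold. Its lean levels were 8.77, 7.98 and 8.93 CPM on d3, 25.4, 21.1 and 24.7 on d5, 37.1, 33.3 and 27.3 on d7 and 101, 86.5 and 86.9 on d10. In DIO calli they were 8.22, 13.3 and 13.03 on d3, 32.3, 21.4 and 26.2 on d5, 11.3, 18.2 and 17.3 on d7 and 83.4, 77 and 88.2 on d10. All DIO calli of d7 were below those of d5. From d3 to d10 Ocstamp rose 10.8-fold in lean (log2 fold change 3.44 ± 0.16 SE, adjusted p = 3.79e-07) and 7.21-fold in DIO calli (log2 fold change 2.85 ± 0.32 SE, adjusted p = 1.55e-05). Ocstamp started higher per length than Dcstamp (2.34 ± 0.138 against 1.63 ± 0.336 CPM per kilobase on lean d3, SD, n = 3) and ended lower (25.03 ± 2.30 against 35.8 ± 3.58 on lean d10).

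Oscar is an immunoglobulin-like receptor that binds collagen and signals through the Fc receptor gamma chain, and Calcr is the receptor for calcitonin, the hormone that restrains resorption. Oscar stood at 3.27, 5.12 and 4.44 CPM on lean d3, 14.03, 11.1 and 13.7 on d5, 36.3, 37.9 and 25.1 on d7 and 50.7, 66.5 and 94.6 on d10. In DIO calli it stood at 2.88, 4.39 and 3.50 on d3, 25.1, 16.4 and 22.2 on d5, 9.34, 12.2 and 10.3 on d7 and 87.3, 70.99 and 102 on d10. All 3 DIO calli of d7 were below the lean calli of that day, where 12% of the 15753 genes tested were lower without overlap. Oscar was picked on these values, so they describe the choice and are no result on diet. Its fitted log2 fold change of DIO against lean was 0.72 on d5 and -1.63 on d7. The lowest group mean of Oscar was DIO d3 (3.59 ± 0.760 CPM, SD, n = 3) and the highest DIO d14 (98.6 ± 22.8 CPM), where single calli ranged from 74.3 to 119 and overlapped those of lean d10 and DIO d10.
Ordered by group mean, Oscar rose through DIO d3, lean d3, DIO d7, lean d5, DIO d5, lean d7, DIO d21, lean d10, DIO d10 and DIO d14. In that order the calli of DIO d3 and lean d3, of DIO d7 and lean d5, and of DIO d21, lean d10, DIO d10 and DIO d14 overlapped with their next neighbour, and the calli of DIO d5 and lean d7 met at 25.1 CPM. Lean d3 and DIO d7, lean d5 and DIO d5, and lean d7 and DIO d21 did not overlap. This order describes the values on which Oscar was picked.
Fcer1g, the gamma chain that carries the signal of OSCAR, was lower on lean d10 than on d3 (log2 fold change -0.92 ± 0.22 SE, adjusted p = 0.00919) and lower in DIO than in lean calli on d5 (log2 fold change -0.89 ± 0.13 SE, adjusted p = 0.0378). The macrophage marker sum was also lower in both comparisons, and the part of these cells was not tested.
Calcr was the rarest of the 10 genes. Its raw counts were 1, 1 and 2 on lean d3, 15, 11 and 7 on d5, 10, 10 and 9 on d7 and 47, 29 and 95 on d10. In DIO calli they were 0, 6 and 1 on d3, 5, 31 and 10 on d5, 7, 6 and 8 on d7, 59, 22 and 48 on d10, 106, 62 and 124 on d14 and 140, 92 and 91 on d21. At 0 to 6 counts per library, the d3 calli set no firm base for a fold. From d7 to d10 Calcr rose 6.23-fold in lean (log2 fold change 2.64 ± 0.50 SE, adjusted p = 0.0286) and 6.58-fold in DIO calli (log2 fold change 2.72 ± 0.65 SE, adjusted p = 0.00967). Apart from Car2, it was the member whose group mean was highest on d21, at 6.02 ± 1.81 CPM (SD, n = 3), with d14 at 5.35 ± 1.53.

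Acp5 encodes tartrate-resistant acid phosphatase and Ctsk the collagen-degrading protease cathepsin K. Together they held 38.6% to 88.9% of the counts on the 10 genes in a library, with a median of 73.2%. Acp5 stood at 255, 268 and 254 CPM on lean d3, 528, 567 and 646 on d5, 1592, 1720.0 and 1084 on d7 and 5034, 5501 and 6257 on d10. DIO calli held 171, 289 and 254 CPM on d3, 916, 563 and 637 on d5, 386, 660.4 and 551 on d7 and 5354, 5478 and 6913 on d10. Lean levels of the 4 days did not overlap, whereas DIO levels of d5 and d7 did. The rise from d3 to d10 was 21.9-fold in lean (log2 fold change 4.45 ± 0.22 SE, adjusted p = 4.33e-07) and 25-fold in DIO calli (log2 fold change 4.64 ± 0.34 SE, adjusted p = 2.39e-07).
Ctsk was about level with Acp5 per length at the peak. On lean d10 they had 2573 ± 734 and 2757 ± 304 CPM per kilobase (SD, n = 3), and on DIO d10 3066 ± 597 and 2914 ± 427. Ctsk stood at 287, 301 and 344 CPM on lean d3, 700.1, 691 and 789.5 on d5, 1618, 1620.0 and 1359 on d7 and 2877, 3717 and 5076 on d10. DIO calli held 225, 379 and 390.2 CPM on d3, 1061, 853 and 831 on d5, 486, 941 and 595 on d7 and 4113, 4118 and 5679 on d10. Every DIO callus of d7 was below every lean callus of d7. From d3 to d10 Ctsk rose 12.7-fold in lean (log2 fold change 3.67 ± 0.23 SE, adjusted p = 4.42e-06) and 14.1-fold in DIO calli (log2 fold change 3.82 ± 0.32 SE, adjusted p = 7.02e-07).

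Of the acid secretion genes, Atp6v0d2 rose several fold from d3 to d10 under both diets, while Tcirg1 and Clcn7 rose by little more than 1 on the log2 scale at most. Atp6v0d2 encodes the d2 subunit of the membrane sector of the pump and Tcirg1 its a3 subunit, while Clcn7 encodes the chloride-proton exchanger ClC-7. Atp6v0d2 stood at 29.7, 42.1 and 31.5 CPM on lean d3, 78.4, 67.6 and 67.6 on d5, 121, 101 and 106 on d7 and 164, 235 and 314 on d10. In DIO calli the levels were 20.1, 36.99 and 29.4 on d3, 68.03, 70.9 and 66.7 on d5, 35.5, 56.2 and 40.1 on d7 and 272, 185 and 324 on d10. All DIO calli of d7 were below those of d5. From d3 to d10 it rose 7.00-fold in lean (log2 fold change 2.81 ± 0.22 SE, adjusted p = 2.66e-05) and 9.07-fold in DIO calli (log2 fold change 3.18 ± 0.25 SE, adjusted p = 3.89e-07).
Tcirg1 stood at 367, 375 and 376 CPM on lean d3, 482, 470.4 and 461 on d5, 515, 487 and 332 on d7 and 749.8, 728 and 603 on d10. Its DIO levels were 484, 396 and 371 on d3, 454, 286 and 372 on d5, 219.8, 273 and 298 on d7 and 658, 628 and 689.9 on d10. All 3 DIO calli of d7 were thus below every DIO callus of d3, although that difference did not pass the test (log2 fold change -0.64 ± 0.21 SE, adjusted p = 0.0737). Tcirg1 was 1.89-fold higher on d10 than on d3 in lean (log2 fold change 0.92 ± 0.17 SE, adjusted p = 0.00298) and 1.59-fold higher in DIO calli (log2 fold change 0.67 ± 0.21 SE, adjusted p = 0.0322).
Clcn7 stood at 90.3, 87.8 and 82.03 CPM on lean d3, 128, 116 and 117 on d5, 128, 134 and 112 on d7 and 163, 177 and 205 on d10. Its DIO levels were 97.8, 95.4 and 86.3 on d3, 124, 87.6 and 108 on d5, 66.7, 71.8 and 92.1 on d7 and 192, 197 and 191 on d10. The rise from d3 to d10 was 2.13-fold in lean (log2 fold change 1.09 ± 0.12 SE, adjusted p = 0.000221) and 2.09-fold in DIO calli (log2 fold change 1.06 ± 0.18 SE, adjusted p = 0.000488). Ostm1, the subunit that ClC-7 needs for its stability, rose by 0.63 on the log2 scale in lean calli over the same days (adjusted p = 0.0197).

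Each of the a and d subunits of the pump has paralogues, whose levels are given beside those of the osteoclast forms. Per kilobase of exon, Tcirg1 had 80.96 ± 1.15 CPM on lean d3 and 151 ± 17.2 on lean d10 (SD, n = 3), above Atp6v0a1 (16.7 ± 1.21 and 10.2 ± 1.75), Atp6v0a2 (6.31 ± 0.846 and 4.73 ± 0.513) and Atp6v0a4 (0.200 ± 0.141 and 0.778 ± 0.265). Atp6v0a1 fell over those days (log2 fold change -0.69 ± 0.14 SE, adjusted p = 0.00492), Atp6v0a2 did not pass (log2 fold change -0.40 ± 0.16 SE, adjusted p = 0.0784), and the rare Atp6v0a4 rose (log2 fold change 1.98 ± 0.49 SE, adjusted p = 0.011).
Among the d subunits, Atp6v0d1, the widely expressed form, was above Atp6v0d2 on lean d3 (80.6 ± 0.606 against 12.7 ± 2.45 CPM per kilobase). On lean d10 they stood at 108 ± 11.7 and 87.5 ± 27.6, and on DIO d10 at 90.7 ± 9.05 and 95.8 ± 25.9. Atp6v0d1 itself rose by 0.45 on the log2 scale in lean calli from d3 to d10 (adjusted p = 0.0229).

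**Figure D2:**
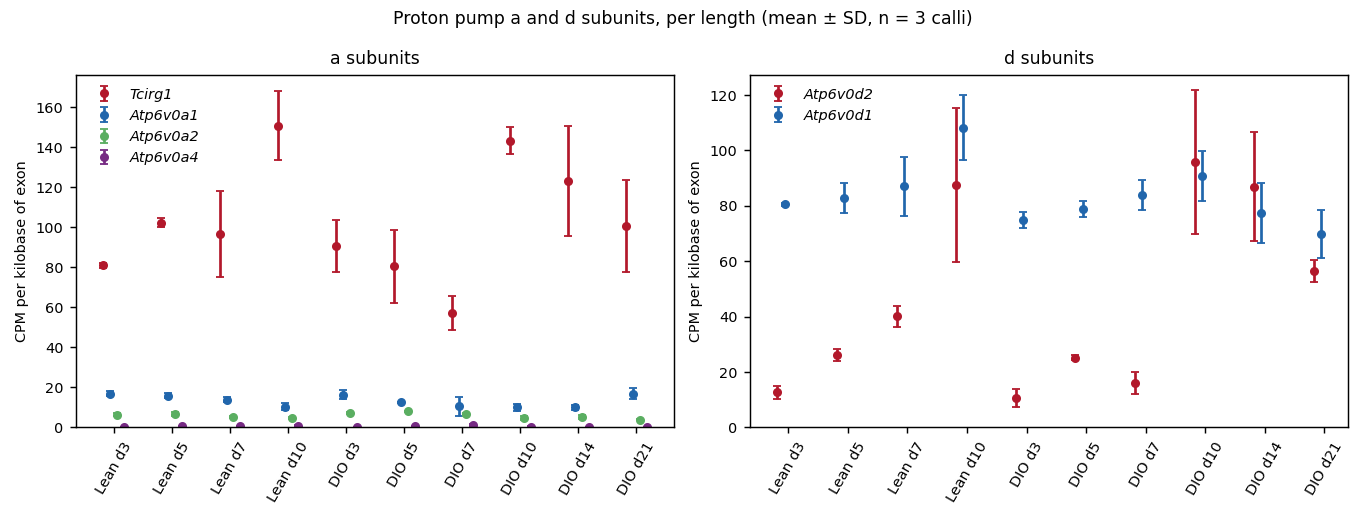
Mean CPM per kilobase of exon (± SD, n = 3 calli) of the a subunits (left) and d subunits (right) of the proton pump in each group. Tcirg1 is the highest a subunit in all 10 groups, and Atp6v0d2 goes from far below Atp6v0d1 on d3 to a similar level on d10.

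Of 23 other pump subunits and accessory proteins, 20 were tested in lean calli, and 14 rose and 1 fell from d3 to d10, against 15.2% and 14.1% of all genes. Their median log2 fold change was 0.75, beside 0.023 over all genes. The smallest adjusted p-values were those of the cytoplasmic subunits Atp6v1f (log2 fold change 1.31 ± 0.13 SE, adjusted p = 8.94e-05) and Atp6v1e1 (log2 fold change 1.31 ± 0.15 SE, adjusted p = 0.000261) and of the membrane subunit Atp6v0e (log2 fold change 0.90 ± 0.11 SE, adjusted p = 0.000328). In DIO calli from d3 to d21, 12 rose and 2 fell, against 23.5% and 21.8% of all genes, led by Atp6v1e1 (log2 fold change 1.30), Atp6v1c1 (0.99) and Atp6v1d (0.95).

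Car2 encodes carbonic anhydrase II, which supplies protons to the osteoclast pump and is also abundant in red blood cells. It did not share the course of the other members. Lean calli held 92.5, 303 and 31.1 CPM on d3, 20.1, 112 and 41.4 on d5, 136, 353 and 162 on d7 and 26.9, 163 and 68.9 on d10, and only the groups of d5 and d7 did not overlap. DIO calli held 13.01, 25.97 and 17.1 CPM on d3, 18.2, 9.48 and 12.2 on d5, 43.3, 30.8 and 259 on d7, 85.3, 169 and 203 on d10, 265, 532 and 206 on d14 and 1776, 997 and 1419 on d21. The 3 calli of d21 were above all other 27 libraries. Car2 was 75.6-fold higher on DIO d21 than on DIO d3 (log2 fold change 6.24 ± 0.74 SE, adjusted p = 5.95e-06), and no difference among the lean days passed (log2 fold change -0.69 ± 0.83 SE, adjusted p = 0.556 from d3 to d10).
The summed CPM of 11 erythroid markers, of which 10 or 11 were detected in every group, among them the globins Hba-a1, Hba-a2, Hbb-bs and Hbb-bt, was 27771 to 39604 on DIO d21 and at most 13412 in any other group. Over the 30 libraries log2 CPM of Car2 followed the log2 sum of these markers with Pearson's r = 0.986 and Spearman's rho = 0.977. Without the 2 libraries farthest from the median sum r was 0.981, and for deviations from the group means it was 0.971. For the other 9 members r with the same sum lay between 0.182 and 0.503. These are descriptions over libraries that share days and diets, chosen after the levels were seen. Car2 amounted to 1.69% to 5.24% of the erythroid sum, while Car2 itself ranged 187-fold and the sum 85.3-fold over the libraries. Car1, the other red cell carbonic anhydrase and 1 of the 11 markers, rose by 6.76 on the log2 scale from d3 to d21 in DIO calli (adjusted p = 2.56e-05).

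**Figure D3:**
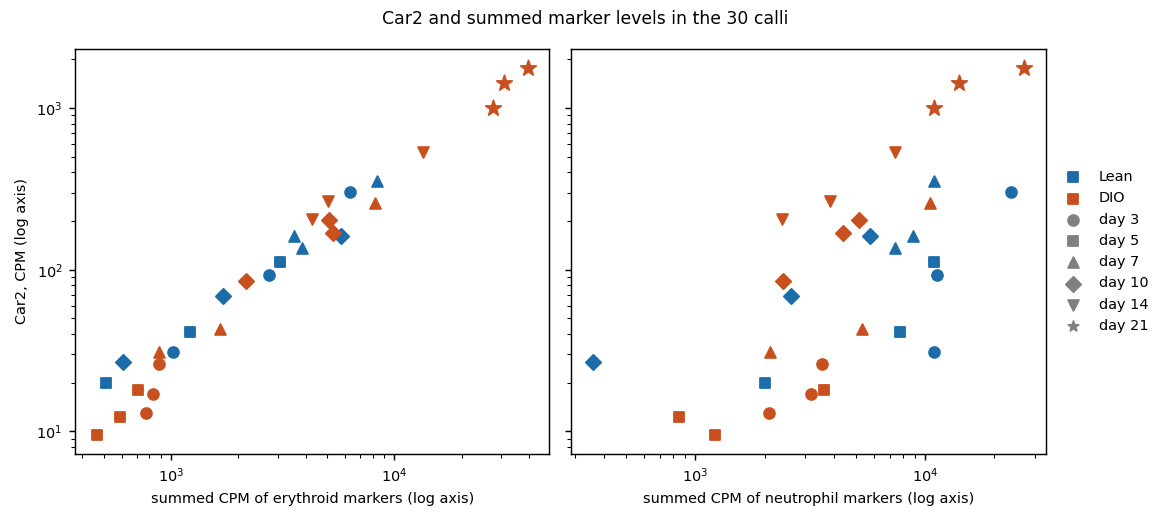
Car2 as CPM against the summed CPM of erythroid markers (left) and neutrophil markers (right), both on log axes, with 1 point per callus, colour for diet and shape for day. The 30 calli lie close to 1 line in the left panel, and the 3 DIO calli of d21 are at its top, at 997 CPM or more.

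The neutrophil marker sum gave r = 0.705. In 9 of the 10 groups the callus highest in Car2 was also the one highest in the erythroid sum, and in 10 of 10 the one highest in the neutrophil sum. The part of these cells in the level of Car2 was not tested.

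The question of whether obesity alters resorption genes was addressed by comparing the diets on each day. On d7, 5 genes were lower in DIO than in lean calli, and on d3, d5 and d10 none of the tested members passed the test. Only on d7 did all 8 tested members have estimates below 0, and for 7 of them, all but Car2, no DIO callus overlapped a lean callus, where 12% of the 15753 genes tested were lower without overlap. On d10 all 9 overlapped, where 14.3% of genes did not.
On d7 Dcstamp was 3.07-fold lower (log2 fold change -1.62 ± 0.28 SE, adjusted p = 0.0218), Acp5 2.72-fold lower (log2 fold change -1.45 ± 0.26 SE, adjusted p = 0.0256) and Atp6v0d2 2.47-fold lower (log2 fold change -1.30 ± 0.20 SE, adjusted p = 0.016). Ctsk was 2.25-fold lower (log2 fold change -1.17 ± 0.26 SE, adjusted p = 0.0485) and Ocstamp 2.07-fold lower (log2 fold change -1.05 ± 0.23 SE, adjusted p = 0.0457). These 5 of 8 genes compare with 0.92% of all genes called lower that day. Tcirg1 (log2 fold change -0.74 ± 0.21 SE, adjusted p = 0.113), Clcn7 (log2 fold change -0.68 ± 0.17 SE, adjusted p = 0.0785) and Car2 (log2 fold change -0.95 ± 0.70 SE, adjusted p = 0.558) did not pass, and Calcr had too few counts to be tested.
The count of 5 rested on single calli. It was 0 without lean d7 replicate 1 or replicate 2, 3 without lean d7 replicate 3 and 1 without DIO d7 replicate 1. With 1 of the 6 libraries left out in turn, the log2 fold change stayed within -1.94 to -1.39 for Dcstamp, -1.62 to -1.25 for Acp5, -1.51 to -1.16 for Atp6v0d2, -1.48 to -0.97 for Ctsk and -1.16 to -0.85 for Ocstamp.
Other marker sums moved with this difference. On d7 the summed CPM of 12 macrophage markers, all detected, was 2498 to 2904 in DIO and 3546 to 5088 in lean calli, and that of 8 chondrocyte markers, all detected, 16451 to 37812 in DIO and 3864 to 15545 in lean calli. The sum of 7 dendritic cell markers, of which 5 were detected in DIO and 7 in lean calli, was 29 to 41.6 in DIO and 62.98 to 71.1 in lean calli. None of the 3 ranges overlapped between the diets, and their part in the result was not tested. The 9 osteoclast markers, of which 5 are members, summed to 1742 to 2398 in DIO and 4359 to 5332 in lean calli.

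**Figure D4:**
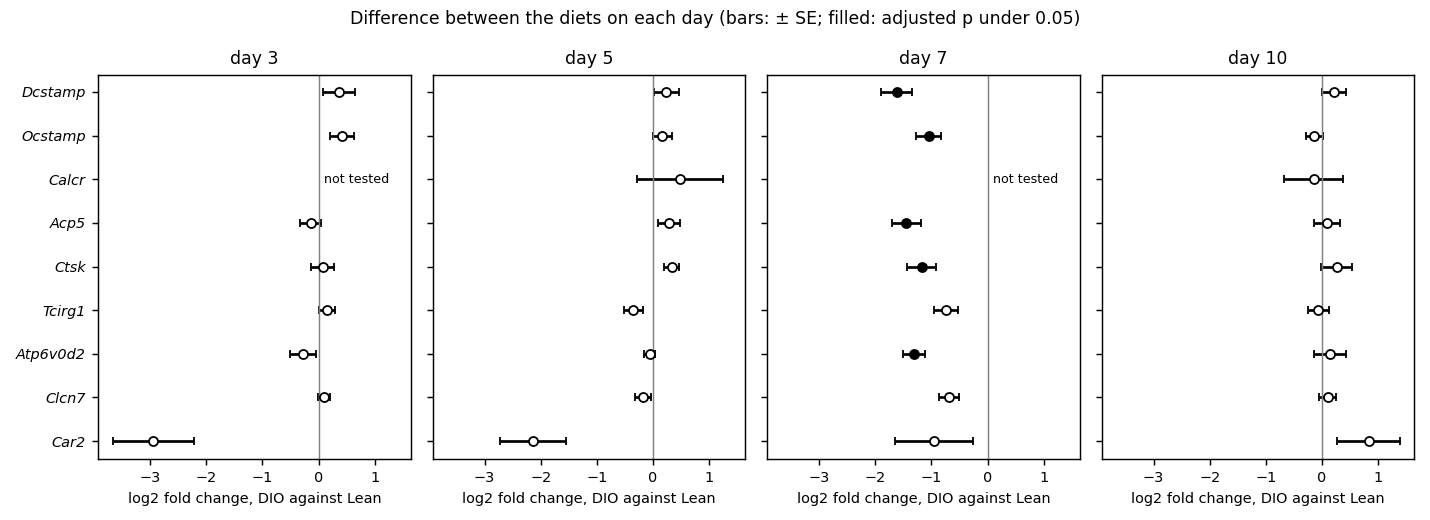
Log2 fold change of DIO against lean calli on each day for the 9 tested genes, with bars of ± SE and filled points for an adjusted p under 0.05. The 5 filled points are all on d7, between -1.62 and -1.05, and Car2 is the lowest point on d3 and d5.

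On d3, 0 of 8 members passed in edgeR, as did 0 of 15772 genes (0%), with 2374 genes at an unadjusted p under 0.05. In DESeq2 1 member passed, with 728 genes called. Car2 had the lowest estimate in edgeR (log2 fold change -2.94 ± 0.73 SE, adjusted p = 0.138). Marker sums also differed between the diets on d3 without overlap, and their part was not tested. The erythroid sum was 772 to 882 in DIO and 1017 to 6333 in lean calli. The neutrophil sum was 2085 to 3540 in DIO and 10940.1 to 23617 in lean calli, and the dendritic cell sum was also lower in DIO calli. On d5, 0 of 9 passed in either tool, against 1.08% of 15722 genes in edgeR, with 2913 genes at an unadjusted p under 0.05. DESeq2 called 1150 genes that day. Car2 was again the lowest in edgeR (log2 fold change -2.13 ± 0.59 SE, adjusted p = 0.117). On d10 the widest intervals of the log2 fold change were those of Car2 (0.83, 95% interval -0.45 to 2.11) and Calcr (-0.15, 95% interval -1.33 to 1.03). Ctsk (0.26, 95% interval -0.38 to 0.90), Atp6v0d2 (0.14, 95% interval -0.51 to 0.78), Acp5 (0.09, 95% interval -0.45 to 0.62) and Dcstamp (0.21, 95% interval -0.26 to 0.69) followed. The narrowest were those of Tcirg1 (-0.07, 95% interval -0.48 to 0.35), Clcn7 (0.10, 95% interval -0.26 to 0.46) and Ocstamp (-0.14, 95% interval -0.47 to 0.20). On d10, 0 of 9 members passed in either tool and 0 of 15341 genes (0%) in edgeR, with 1082 genes at an unadjusted p under 0.05. Some marker sums differed between the diets on d10 without overlap, and their part was not tested. The chondrocyte sum was 2476 to 7188 in DIO and 14322 to 73066 in lean calli. The skeletal muscle sum was 18100.2 to 24728 in DIO and 1006 to 14249 in lean calli. The sum of 7 adipocyte markers was 238 to 399 in DIO (7 detected) and 62.5 to 176 in lean calli (4 detected).
The diet difference itself changed from d7 to d10 for 6 members, all upward, against 1.7% of 17057 genes. These were Dcstamp (log2 fold change 1.83 ± 0.37 SE, adjusted p = 0.00782), Acp5 (log2 fold change 1.54 ± 0.32 SE, adjusted p = 0.01), Atp6v0d2 (log2 fold change 1.44 ± 0.34 SE, adjusted p = 0.0176), Ctsk (log2 fold change 1.43 ± 0.35 SE, adjusted p = 0.0208), Clcn7 (log2 fold change 0.79 ± 0.19 SE, adjusted p = 0.0217) and Ocstamp (log2 fold change 0.92 ± 0.26 SE, adjusted p = 0.0481). Their number was 3 without lean d7 replicate 2 or DIO d7 replicate 1, and 2 without lean d10 replicate 1. Between d3 and d10 the difference changed for 0 of 9 members in edgeR and in DESeq2. It changed for 0.00586% of genes in edgeR, with 3114 genes at an unadjusted p under 0.05, and DESeq2 called 473 genes. Over the time course from d3 to d10, fitted with a polynomial of degree 2, the diet terms passed for 0 of 9 members in edgeR, against 8.13% of genes (1386), with 4308 genes at an unadjusted p under 0.05, and for 2 members in DESeq2, which called 2500 genes.
Because the DIO levels appeared to dip, the steps around d5 were compared after the levels were seen. From d3 to d5, 4 members rose in lean (Acp5, Ctsk, Dcstamp and Ocstamp, against 0.443% of genes) and 4 in DIO calli (Acp5, Ctsk, Dcstamp and Atp6v0d2, against 1.39%). The lean count was 2 without lean d3 replicate 1 or 2, lean d5 replicate 1, 2 or 3, or lean d7 replicate 1, and the DIO count was 0 without DIO d3 replicate 1 and 2 without DIO d5 replicate 1. From d5 to d7, 8 of 9 DIO estimates were negative. In edgeR 0 passed, against 0.0177% of genes, with 2411 genes at an unadjusted p under 0.05. In DESeq2 1 member passed, with 346 genes called. In lean calli 0 passed in edgeR, against 0% of genes, with 926 at an unadjusted p under 0.05. There 3 members passed in DESeq2, with 37 genes called. The change of the diet difference from d5 to d7 was -1.73 on the log2 scale for Acp5 and -1.86 for Dcstamp (edgeR adjusted p = 0.12 and 0.242). It passed for 0 of 9 members in edgeR, against 0.00586% of genes, with 647 genes at an unadjusted p under 0.05. For this change 4 members passed in DESeq2, with 13 genes called.

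After d10 the members parted in the DIO calli. From d10 to d14, 0 of 9 members passed in edgeR or DESeq2. In edgeR 0.759% of genes passed, with 3006 genes at an unadjusted p under 0.05, and DESeq2 called 552 genes. From d10 to d21, a step compared after the levels were seen, 5 members fell (Ctsk, Dcstamp, Ocstamp, Atp6v0d2 and Clcn7), against 21.8% of genes, and Car2 rose, against 21.7%. The count of 6 was 3 without DIO d10 replicate 3.
Other marker sums moved over this step too, all without overlap and with no test of their part. Lower on d21 were the osteoblast sum (40311 to 47623 on d10 and 14736 to 26529.8 on d21), the chondrocyte sum (2476 to 7188 on d10 and 71.3 to 685 on d21) and the skeletal muscle sum (18100.2 to 24728 on d10 and 377 to 12167 on d21). Higher on d21 were the erythroid sum (2169 to 5311 on d10 and 27771 to 39604 on d21), the neutrophil sum (2411 to 5124 on d10 and 10893 to 26906 on d21) and the macrophage sum (3190.4 to 3326 on d10 and 3545 to 4907 on d21), and those of adipocytes and dendritic cells.
Ocstamp went from 83.4, 77 and 88.2 CPM on d10 to 61.7, 35.7 and 96.8 on d14 and 27.7, 36.8 and 19.5 on d21, a 2.93-fold fall from d10 to d21 (log2 fold change -1.55 ± 0.30 SE, adjusted p = 0.000715). Dcstamp went to 87.4, 60.3 and 117 on d14 and 57.9, 50.04 and 34.5 on d21, a 2.29-fold fall (log2 fold change -1.20 ± 0.30 SE, adjusted p = 0.00428). The fusion genes thus had the largest falls of the 9 tested genes. Ctsk stood at 4432, 3171 and 6006 on d14 and 3002, 2583 and 2163 on d21 (log2 fold change -0.83 ± 0.29 SE, adjusted p = 0.0265 for d21 against d10). Acp5, at 5222, 3929.9 and 8263 and 4072, 3989 and 2820.4, did not pass (log2 fold change -0.69 ± 0.29 SE, adjusted p = 0.0663).
Atp6v0d2 fell from d10 to d21 (log2 fold change -0.75 ± 0.23 SE, adjusted p = 0.0152) as did Clcn7 (log2 fold change -0.49 ± 0.17 SE, adjusted p = 0.0307), while Tcirg1 did not pass (log2 fold change -0.49 ± 0.21 SE, adjusted p = 0.0675). Oscar stood at 102, 74.3 and 119 CPM on d14 and 63.1, 63.1 and 50.2 on d21. In the single step from d14 to d21, Dcstamp (log2 fold change -0.88 ± 0.30 SE, adjusted p = 0.0469) and Ocstamp (log2 fold change -1.20 ± 0.30 SE, adjusted p = 0.0121) fell and Car2 rose (log2 fold change 2.07 ± 0.61 SE, adjusted p = 0.0257), against 9.03% of genes that fell and 10.6% that rose. That count was 0 without DIO d14 replicate 3, 1 without DIO d14 replicate 1 or DIO d21 replicate 1, and 6 without DIO d14 replicate 2. Against d3, 8 members were still higher on d21, against 23.5% of genes, and Tcirg1 was not (log2 fold change 0.17 ± 0.21 SE, adjusted p = 0.533).

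**Figure D5:**
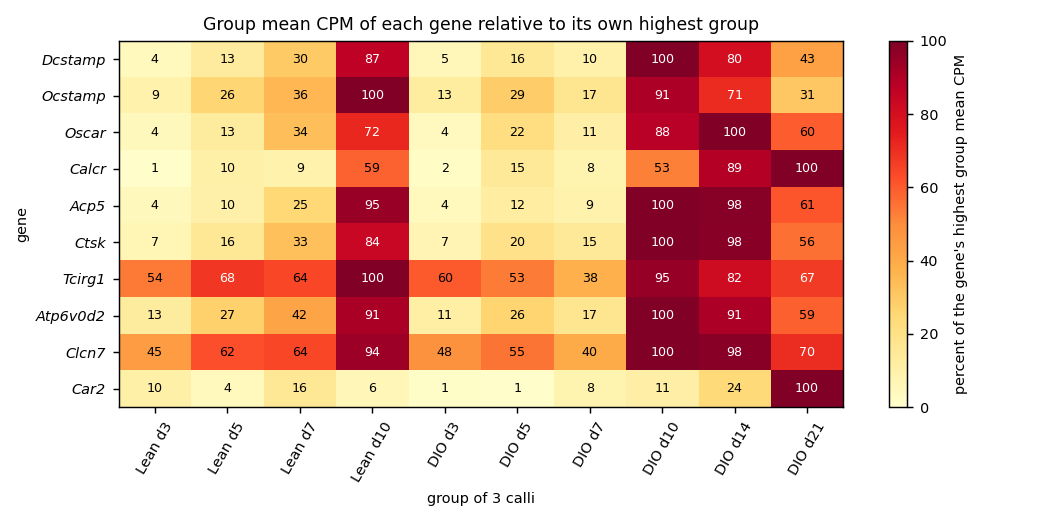
Mean CPM of each gene in each group as a percentage of the gene's own highest group mean, with the value printed in each cell. On DIO d21 Calcr and Car2 are at 100 and Ocstamp at 30.6, while the other 7 genes lie between 43.2 and 70.5.

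The genes that surround the members in osteoclast formation were read from lists by role. The receptors RANK (Tnfrsf11a, log2 fold change 0.55 ± 0.14 SE, adjusted p = 0.0115) and CSF1 receptor (Csf1r, log2 fold change 0.66 ± 0.19 SE, adjusted p = 0.0222) and the transcription factor Nfatc1 (log2 fold change 1.01 ± 0.23 SE, adjusted p = 0.00746) rose in lean calli from d3 to d10. Of their ligands, Tnfsf11, which encodes RANKL (log2 fold change 0.72 ± 0.29 SE, adjusted p = 0.0768), and Csf1 (log2 fold change 0.12 ± 0.17 SE, adjusted p = 0.633) did not pass. Neither did Tnfrsf11b, which encodes a decoy receptor of RANKL (log2 fold change -0.01 ± 0.49 SE, adjusted p = 0.99). The adhesion receptor chain Itgb3 (log2 fold change 1.11 ± 0.27 SE, adjusted p = 0.00955) and the gelatinase Mmp9 (log2 fold change 3.05 ± 0.23 SE, adjusted p = 2.28e-05) rose.
The shares of all genes tested that rose and fell were 15.2% and 14.1% in lean d10 against d3 and 23.5% and 21.8% in DIO d21 against d3, and the counts of each list are to be read beside them. Of 18 receptors and transcription factors, 4 rose and 6 fell in lean calli from d3 to d10, at a median of -0.10 on the log2 scale, and of 17 adhesion and matrix-degrading genes 9 rose and 4 fell, with a median of 0.57. The 3 smallest adjusted p-values in the former list were those of Jun (log2 fold change -0.97), Irf8 (-1.39) and Bcl6 (-0.78), all 3 falling. In the latter they were those of Mmp9, of the collagenase Mmp13 (2.88) and of the kinase Src (1.06), all 3 rising. From d3 to d21 in DIO calli the former list counted 2 higher and 7 lower, with Jun (-1.66), Nfkb2 (-1.39) and Traf6 (0.98) leading, and the latter 6 higher and 4 lower, with Mmp9 (2.73), Rac2 (2.02) and Itgb3 (1.72). None of the 4 genes of the ligand list, which includes the decoy receptor Tnfrsf11b, passed in lean calli from d3 to d10. From d3 to d21 in DIO calli Il34, the second ligand of the CSF1 receptor, rose (1.24) and Tnfrsf11b fell (-1.28).
Of 17 partners in acid transport and the ruffled border, the folded membrane through which acid is released, 6 rose and 3 fell in lean calli from d3 to d10, against 15.2% and 14.1% of all genes, at a median of -0.0037 on the log2 scale. The sodium-proton exchanger Slc9b2 (log2 fold change 3.81 ± 0.18 SE, adjusted p = 4.33e-07), the vesicle GTPase Rab38 (log2 fold change 2.60 ± 0.21 SE, adjusted p = 2.82e-05) and the sorting nexin Snx10 (log2 fold change 2.19 ± 0.20 SE, adjusted p = 6.52e-05) led. In DIO calli from d3 to d21, 6 rose and 3 fell, against 23.5% and 21.8%, with Rab38 (2.96), the chloride exchanger Clcn3 (2.71) and Snx10 (1.96) leading.
Of 16 immune co-receptors and fusion proteins, 3 rose and 9 fell in lean calli over the same days, against 15.2% and 14.1% of all genes, at a median of -0.70, led by the osteoclast lectin Siglec15 (log2 fold change 4.20 ± 0.31 SE, adjusted p = 1.99e-05), the protease Adam8 (log2 fold change -2.01 ± 0.17 SE, adjusted p = 3.53e-05) and the kinase Syk (log2 fold change -1.09 ± 0.22 SE, adjusted p = 0.00444). In DIO calli from d3 to d21, 7 rose and 4 fell, against 23.5% and 21.8%, led by Cd47 (1.62), Btk (1.12) and Syk (1.36).
Of the 92 genes of these lists tested on d5 and d7, 3 were lower in DIO calli on d5, against 0.948% of all genes, and 8 were lower and 3 higher on d7, against 0.92% and 1.4%. On d5, Fcer1g, Syk (log2 fold change -0.91) and Irf8 (-1.13) were lower in DIO calli. Lower without overlap that day were also the macrophage sum (2887 to 3319 in DIO and 4668 to 6216 in lean calli) and the dendritic cell sum. The latter was 35.4 to 41.0 in DIO and 55.3 to 75.5 in lean calli. The part of these cells was not tested. On d7, Mmp9 (-1.27), Snx10 (-1.16), Slc9b2 (-1.07), Btk (-1.05), Atp6v1b2 (-1.03), Csf1r (-1.02), the lysosomal glycoprotein Cd68 (-0.96) and P2rx7 (-0.95) were lower. Csf1r and Cd68 are also among the macrophage markers, whose sum was lower in DIO calli that day. Higher on d7 were Atp6v1c2 (2.00), the carbonic anhydrase Car12 (1.43) and Tnfrsf11b (1.09). On d3 and d10 none passed, where no gene at all did.

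Across the 30 libraries, log2 CPM of Acp5, Ctsk, Dcstamp and Atp6v0d2 followed the mean of the other members with r between 0.977 and 0.989, and Tcirg1 (0.712) and Car2 (0.464) followed it least. Acp5 and Ctsk were the closest pair, at r = 0.992. Among 14798 other genes with a mean of at least 1 CPM, the 10 most alike in pattern to the members' mean were Slc9b2 (r = 0.983), Rufy4 (0.981), Rab38 (0.978), Arsb (0.978), Ckb (0.972), Snx10 (0.971), Mt3 (0.967), Mmp9 (0.965), Mst1r (0.964) and Glb1 (0.961). All r are over 30 libraries that share days and diets and describe likeness in these libraries alone. The means include Oscar, which was picked on its CPM in these same libraries.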

How the data were processed

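RNA from fracture callus of 30 mice, 3 per diet and day, had been made into stranded polyA libraries and sequenced on an Illumina NovaSeq instrument. The authors converted the runs with bcl2fastq, trimmed reads with BBDuk, aligned them to GRCm38 with HISAT2 2.1.0 and counted reads per gene with HTSeq, and the deposited values are raw counts of 43629 Ensembl genes. The strand setting, annotation and version of the counting are not given in the sources used here. Per the GENCODE M21 annotation of GRCm38, 42548 identifiers were matched to symbols.
Library totals of 13247122 to 26365620 counts were scaled by TMM in edgeR 4.0.16 (R 4.3.3). Genes were filtered with filterByExpr, and the quasi-likelihood test (glmQLFit, glmQLFTest) was fitted over the lean groups for lean days, the DIO groups for DIO days, the 2 groups of a day for the diet difference, and the 8 groups of d3 to d10 for changes of that difference. Calls were made at a Benjamini-Hochberg adjusted p under 0.05 over all genes tested, and 95% intervals used the moderated degrees of freedom. SE is the size of the log2 fold change divided by the square root of F. Marker sums, correlations and motif searches were computed in Python 3.11.15, and shared sequence was searched with BLAST 2.17.0 at 95% identity over 100 bases or more.
Oscar was picked from earlier results of these data. The other 9 members and the lists were chosen by role, at a time when those earlier results were known. Named genes of each list were up to 3 with the smallest adjusted p in lean d10 against d3 and in DIO d21 against d3 and any called between the diets, beside the receptors, ligands, pump paralogues and partners given in any case, and the 10 genes whose log2 CPM (prior count 2) correlated best with the members' mean. Each p-value measures the spread between calli of different mice. DESeq2 1.42.0, other filters and scaling factors, a fit of all 30 libraries, a replicate block and omission of each library were tried as alternatives, and the steps from d3 to d5 and from d5 to d7 of each diet, DIO d21 against d10 and the change of the diet difference from d5 to d7 were added after the levels were seen. Replicate numbers deviated together most between lean d5 and d7, where the correlations of same-numbered calli were 0.383, 0.318 and 0.331. Between DIO d10 and d14 these correlations were lower, at 0.22, 0.125 and 0.0862. Fits were tested on simulated counts with 200 genes changed. For DIO against lean on d10, edgeR found 24 of 100 genes changed 2-fold and 84 of 100 changed 4-fold, with 15 false calls. DESeq2 found 49 and 94 of them, with 56 false calls. In the other comparisons simulated, edgeR found 113 to 188 of the 200 genes, with 4 to 10 false calls.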

Additional observations from a re-analysis of the deposited data

Results flagged for a closer look

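For 6 genes the difference between DIO and lean calli changed from d7 to d10, by a test of the change itself in edgeR (quasi-likelihood, adjusted over all genes). The change was 1.83 on the log2 scale for Dcstamp, 1.54 for Acp5, 1.44 for Atp6v0d2, 1.43 for Ctsk, 0.92 for Ocstamp and 0.79 for Clcn7, with adjusted p-values from 0.00782 for Dcstamp to 0.0481 for Ocstamp. The estimated difference of each of the 6 was below 0 on d7 and above it or nearer to 0 on d10. The call of Ocstamp was lost in 19 of 24 fits that left out 1 library, with lower filters (adjusted p = 0.0529 and 0.0508) and with the replicate block (0.0615). The number of genes was 3 without lean d7 replicate 2 or DIO d7 replicate 1 and 2 without lean d10 replicate 1. The macrophage, chondrocyte and dendritic cell marker sums did not overlap between the diets on d7 either. On d10 the chondrocyte sum was lower, and the skeletal muscle and adipocyte sums higher, in DIO than in lean calli, also without overlap. The part of these cells in the change was not tested. With 3 calli in each group, no callus was tested as standing apart from its group.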

How the results depend on the processing

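Of the 9 tested genes, the number past the threshold was within 1.5 times the value reported, in most comparisons and settings. With DESeq2 it became 3 from d5 to d7 and 7 from d3 to d5 in lean calli, 1 from d5 to d7 in DIO calli, 1 for the diets on d3, 4 for the change of the diet difference from d5 to d7 and 2 for the time course. Without a filter beyond 1 count it became 1 from d5 to d7 in DIO calli, 1 for the diets on d3 and 1 on d5. With upper-quartile factors it was 6 from d14 to d21 in DIO calli. With the replicate number as a block it was 1 for the diets on d3, 4 on d7, 0 on d5 and d10, and 5 for the change from d7 to d10. Where numbers paired the calli most closely, between lean d5 and d7, the block left the number at 0.
Leaving out 1 library at a time, the lean numbers ranged from 3 to 7 for d10 against d7, 2 to 6 for d5 against d3 and 0 to 1 for d7 against d5. The DIO numbers ranged from 0 to 3 for d7 against d3, 0 to 5 for d5 against d3, 0 to 1 for d7 against d5, 0 to 6 for d21 against d14 and 3 to 7 for d21 against d10. The diet numbers ranged from 0 to 1 on d3 (1 without lean d3 replicate 3), 0 to 1 on d5 (1 without lean d5 replicate 1), 0 to 6 on d7, 2 to 7 for the change from d7 to d10, 0 to 2 for that from d5 to d7 (2 without DIO d7 replicate 2) and 0 to 2 for the time course (2 without DIO d5 replicate 1).
Counts of calls over all genes moved by more than 1.5 times in these cases, given as the reported and the other count. With DESeq2 they were 3132 and 4848 for any lean day, 275 and 840 for lean d7 against d3, 450 and 1827 for lean d10 against d7, 0 and 37 for lean d7 against d5, 74 and 605 for lean d5 against d3, 129 and 552 for DIO d14 against d10, 3 and 346 for DIO d7 against d5, 285 and 575 for DIO d5 against d3, 0 and 728 for the diets on d3, 170 and 1150 for the diets on d5, 366 and 944 for the diets on d7, 0 and 47 for the diets on d10, 1 and 473 for the change of the diet difference d3 to d10, 865 and 1496 for the change of the diet difference d7 to d10, 1 and 13 for the change of the diet difference d5 to d7 and 1386 and 2500 for the time course. With no filter they were 74 and 169 for lean d5 against d3, 129 and 329 for DIO d14 against d10, 3 and 271 for DIO d7 against d5, 285 and 478 for DIO d5 against d3, 0 and 515 for the diets on d3, 170 and 565 for the diets on d5, 366 and 724 for the diets on d7, 0 and 29 for the diets on d10, 1 and 85 for the change of the diet difference d3 to d10 and 1 and 3 for the change of the diet difference d5 to d7. With the block they were 275 and 451 for lean d7 against d3, 450 and 1479 for lean d10 against d7, 74 and 199 for lean d5 against d3, 129 and 45 for DIO d14 against d10, 0 and 325 for the diets on d3, 170 and 0 for the diets on d5 and 1 and 2 for the change of the diet difference d3 to d10. With 1 fit of 30 libraries they were 275 and 523 for lean d7 against d3, 450 and 1529 for lean d10 against d7, 0 and 2 for lean d7 against d5, 74 and 202 for lean d5 against d3, 129 and 2 for DIO d14 against d10, 3 and 1 for DIO d7 against d5, 170 and 63 for the diets on d5, 366 and 675 for the diets on d7 and 0 and 3 for the diets on d10. With linear regression the time course had 808 calls, and 3 other shifts were between 0, 1 and 2 calls. Tcirg1 and Clcn7 passed between the diets on d7 in DESeq2 (adjusted p = 0.0254 and 0.0253) and in the fit of 30 libraries (0.0302 and 0.0139), and Ctsk did not with RLE or upper-quartile factors (0.0513), nor Ocstamp with the block (0.0728). Calls were also lost for the change of Ocstamp from d7 to d10 (0.0529 and 0.0508 with lower filters, 0.0615 with the block), for DIO d21 against d14 of Dcstamp (0.0527 with RLE factors, 0.071 with the block) and Car2 (0.0631 in the fit of 30 libraries), for Clcn7 in lean d10 against d7 (0.0599 without a filter), and with the block for Calcr in lean d7 against d3 (0.0513) and Ctsk in DIO d7 against d3 (0.0527). Of 77 single differences called, 31 did not pass without at least 1 library, and the sign of 0 changed. The cause of these shifts was not tested. Of 100 group levels, 90 moved by less than 1 SD on unscaled library totals. Calcr, at 0 to 6 counts on d3, was limited by depth.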
